A study of Mus musculus with 10 samples.

Results

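Aquaporins are membrane channels that let water, and in some members glycerol and other small uncharged molecules, cross lipid bilayers. The aquaporin genes were read from liver RNA sequencing of mice on a high-fat diet, as the rows of the deposited count table that carry the symbols Aqp1, Aqp3, Aqp4, Aqp7, Aqp8, Aqp9 and Aqp11. All 7 symbols were among the 17359 genes of the table, and 6 of the 7 were tested, as Aqp3 had too few counts. The genes were chosen by symbol and by having counts in these libraries, with earlier results of these data in view, among them the low level of Aqp8 under restriction. The p-values given for single members therefore come from a fit over all 12789 genes tested and are not independent evidence for the family.

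All groups received a high-fat diet. The ad libitum controls (AL, n = 3) ate freely, and the other mice went through a weekly cycle in which calorie intake was reduced by 70% on day 2 and day 3 and by 50% on day 1 and day 4, and food was free from day 5 through day 7. Livers were taken from that cycle at day 3, in the restricted phase (LC, n = 4), and at day 7, in the refeeding phase (RF, n = 3). For strain, sex, age, time of day at collection and the number of cycles completed, nothing is given in the sources used here. The labels do not say whether each sample is a separate animal, so a p-value here measures only sample-to-sample spread, which may be technical.

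In the liver, AQP9 is the main channel for glycerol entry into hepatocytes, where glycerol released from fat tissue feeds glucose synthesis. In mouse and rat liver its transcript is known to rise in fasting and to be lowered by insulin. AQP8 lies in intracellular vesicles and the bile canalicular membrane of rat hepatocytes, where it carries water into bile, and it has also been placed in the inner mitochondrial membrane, where it carries ammonia and hydrogen peroxide. AQP7 is the glycerol channel of adipocytes, AQP3 a water and glycerol channel of epithelia, AQP4 the water channel of astrocytes, AQP1 that of endothelium and red blood cells, and AQP11 a distant member of the endoplasmic reticulum.

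The libraries held 13871500 to 15899500 expected counts (estimated counts that need not be whole). Hepatocyte markers were abundant throughout, with albumin (Alb) at 29505 to 67104 CPM (counts scaled to a common library size, here by TMM, the trimmed mean of M values). Summed over 9 hepatocyte markers the level was 83614 to 100018 CPM among AL libraries, 52435 to 66693 among LC libraries and 77206 to 81456 among RF libraries. Genes were called changed at a Benjamini-Hochberg adjusted p below 0.05 in edgeR's quasi-likelihood test. That called 31.5% of genes for LC against AL, 50.7% of them higher at LC, and 22.1% for RF against LC, 51.5% of them higher at RF. When library totals were used in place of TMM, the median log2 fold change of all genes moved by 0.31 and −0.21, and the shares higher were 86.5% and 19.8%. In bulk tissue, fewer cells of a type and less RNA per cell cannot be told apart.

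The promoters of Aqp8, the member with the largest fold change under restriction, and of Aqp9, the most abundant member, are shown for comparison. Each window holds the 250 bases before an annotated start, from RefSeq (build GRCm38.p6, while the submitters' processing notes name GRCm39), read 5′ to 3′ on the gene's strand. Capitals mark a match to any of 8 motifs searched on both strands. Aqp9 has a pair of annotated starts.
Aqp8 (chr7:123462044-123462293, + strand): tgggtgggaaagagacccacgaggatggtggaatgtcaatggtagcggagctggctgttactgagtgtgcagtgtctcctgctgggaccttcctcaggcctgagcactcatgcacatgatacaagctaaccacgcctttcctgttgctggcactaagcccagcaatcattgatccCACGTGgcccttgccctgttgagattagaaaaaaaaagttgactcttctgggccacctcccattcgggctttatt
Aqp9, first window (chr9:71163290-71163539, − strand): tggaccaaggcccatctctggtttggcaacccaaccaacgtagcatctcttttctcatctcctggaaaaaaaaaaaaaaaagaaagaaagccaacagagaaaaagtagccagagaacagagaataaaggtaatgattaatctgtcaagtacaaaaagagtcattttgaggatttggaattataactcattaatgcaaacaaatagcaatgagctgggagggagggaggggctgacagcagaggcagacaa
Aqp9, second window (chr9:71162634-71162883, − strand): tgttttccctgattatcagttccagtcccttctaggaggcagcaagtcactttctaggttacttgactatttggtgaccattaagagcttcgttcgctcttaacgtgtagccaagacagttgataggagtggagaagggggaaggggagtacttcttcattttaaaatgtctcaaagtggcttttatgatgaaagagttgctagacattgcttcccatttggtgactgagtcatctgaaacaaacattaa
The capitals in Aqp8 are the palindromic E-box CACGTG, 75 bases before the start, which occurs in 6.02% of the 32851 promoter windows of the table. The Aqp8 window is 52.4% G or C, and the Aqp9 windows are 40.4% and 41.6%. Neither Aqp9 window matched a forkhead site (TGTTTAC, 3.17% of windows), a cAMP response element (TGACGTCA, 1.55%), the direct repeat 1 element of nuclear receptors (0.0335%), the palindromic HNF1 site (0.00913%), a D-box (TTATGTAA, 0.819%), CCAAT (33.8%) or TATAAA (12.4%), and the Aqp8 window matched none of these 7 motifs either. Among the other members looked up, Aqp3 held TATAAA 29 bases before its start, and Aqp1, Aqp7 and Aqp11 held none of the 8 motifs. A match describes the letters and is not a binding site.

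Per transcript length, Aqp9 dominated the family in all 10 libraries. Its mean level (± SD) was 233 ± 33.4 FPKM in the 3 AL libraries, 239 ± 13.0 in the 4 LC libraries and 221 ± 10.8 in the 3 RF libraries. FPKM is the authors' measure of fragments scaled to transcript length and library size. Aqp8 came next at AL and RF, with 107 ± 76.6 and 99.4 ± 54.0 FPKM, against 19.5 ± 11 at LC. At LC the levels of Aqp8, Aqp1 (18.7 ± 3.39 FPKM) and Aqp11 (15.1 ± 1.34) lay within their spread of each other. Aqp1 and Aqp11 were at 12.8 ± 4.07 and 16.2 ± 3.81 FPKM at AL, also within their spread, and at 24.4 ± 5.74 and 15.0 ± 1.38 at RF. Library by library, Aqp1 was below Aqp11 in every AL library and above it in every LC and RF library. Aqp4 stayed between 0.59 and 1.94 FPKM and Aqp7 between 0.06 and 1.02.

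The share of Aqp8 in the summed aquaporin FPKM was lower in every LC library than in any other. It was 18.4%, 20.9% and 41.0% in AL replicates 2, 3 and 4, 5.26%, 10.7%, 6.84% and 3.11% in LC replicates 1 to 4, and 26.9%, 37.0% and 15.3% in RF replicates 1 to 3. Aqp9 held 50.6% to 72.6% of the sum among AL libraries, 79.2% to 84.0% among LC libraries and 52.0% to 71.7% among RF libraries. Set against Aqp9 in the same library, which takes library scaling out, the Aqp8 level was 25.3%, 29.3% and 81.1% of it at AL, 3.70% to 13.4% at LC, and 42.6%, 71.2% and 21.3% at RF.

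**Figure D1:**
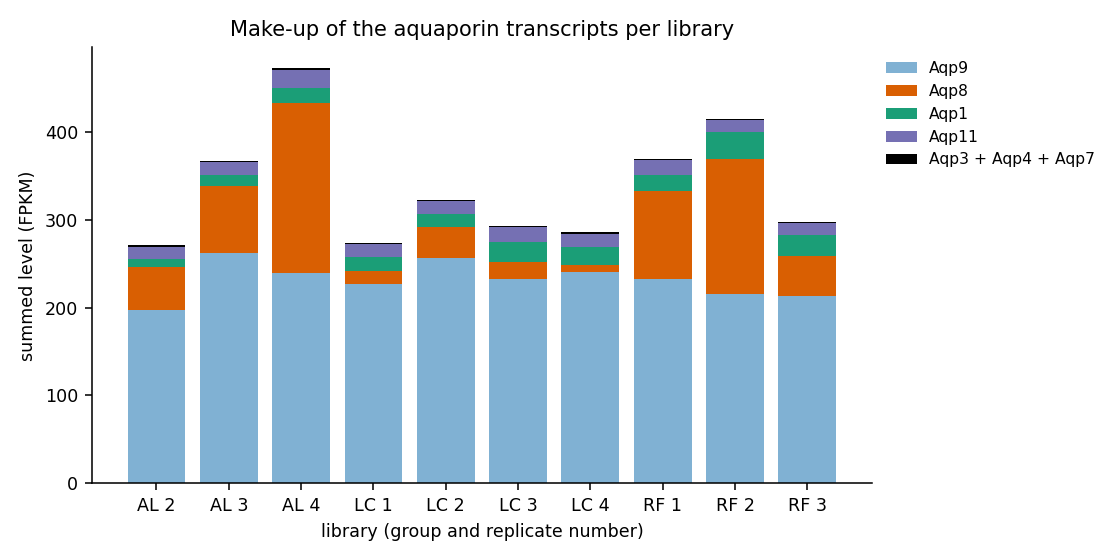
Stacked FPKM of the aquaporin genes in each of the 10 libraries, with Aqp3, Aqp4 and Aqp7 summed in black. The Aqp9 part is of similar height in all libraries, between 197 and 262 FPKM, while the Aqp8 part is 8.89 to 34.5 FPKM in the LC libraries and 45.4 to 194 FPKM in the AL and RF libraries.

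Aqp8 (NCBI gene 11833) was several-fold lower in the restricted liver than in controls and overlapped the control levels again after refeeding. It was at 64.6, 114 and 260 CPM in AL replicates 2, 3 and 4, at 15.6, 40.1, 21.1 and 10.3 CPM in LC replicates 1 to 4, and at 127, 195 and 57.9 CPM in RF replicates 1 to 3. The highest LC library lay below the lowest AL and the lowest RF library, while AL and RF overlapped. The fall from AL to LC was 6.71-fold, a log2 fold change of −2.75 (SE 0.65, 95% interval −4.24 to −1.26, adjusted p = 0.015 in edgeR's quasi-likelihood test). Of the 12789 genes tested, 12 had a lower log2 fold change in this comparison. From LC to RF Aqp8 rose 5.82-fold, by 2.54 (SE 0.64, 95% interval 1.06 to 4.02, adjusted p = 0.026), and 22 genes had a higher log2 fold change. RF against AL gave −0.21 (95% interval −1.74 to 1.33, adjusted p = 0.94).

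The spread of Aqp8 between libraries of a group was wide. Its highest library was 4.03 times its lowest at AL, 3.90 times at LC and 3.37 times at RF. Its within-group SD of log2 CPM was 0.90, against a median of 0.21 over the 9505 genes whose mean reached 5 CPM, and 0.494% of those genes had a larger SD. The call for LC against AL was lost in 2 of 21 alternatives. These were without AL replicate 4, at −2.04 (adjusted p = 0.058), and with a replicate block, a term for the replicate number, at −2.71 (0.077). The range of adjusted p was 0.00037 to 0.077. The call for RF against LC was lost in 5 of 21 alternatives. These were without LC replicate 1 (0.075), LC replicate 3 (0.051), RF replicate 1 (0.069) or RF replicate 2 (0.10), and with the replicate block (0.080). The range there was 0.0017 to 0.10.

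Hepatocyte markers were lower in the same libraries, with 7 of the 9 having fallen at LC against AL, where 15.6% of all genes were lower. The part of these markers in the Aqp8 result was not tested. Albumin was at 50760 to 67104, 29505 to 43286 and 48978 to 51706 CPM over the AL, LC and RF libraries. AQP8 is also abundant in pancreatic acinar cells, whose markers were low here. Of 10 acinar markers, 9 had a mean below 1 CPM, Cpa1 was at 0 in every library, and Cela1 alone reached 6.52 to 27.6 CPM. Their sum was 14.1 to 20.8 CPM among AL libraries, 6.95 to 20.7 among LC libraries and 24.1 to 28.6 among RF libraries. The genes on either side of Aqp8 on chromosome 7 were read for LC against AL. Lcmt1, a methyltransferase gene, gave −0.11 (SE 0.18, adjusted p = 0.68), and the zinc finger gene Zkscan2 rose by 1.18 (SE 0.28, adjusted p = 0.0065).

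**Figure D2:**
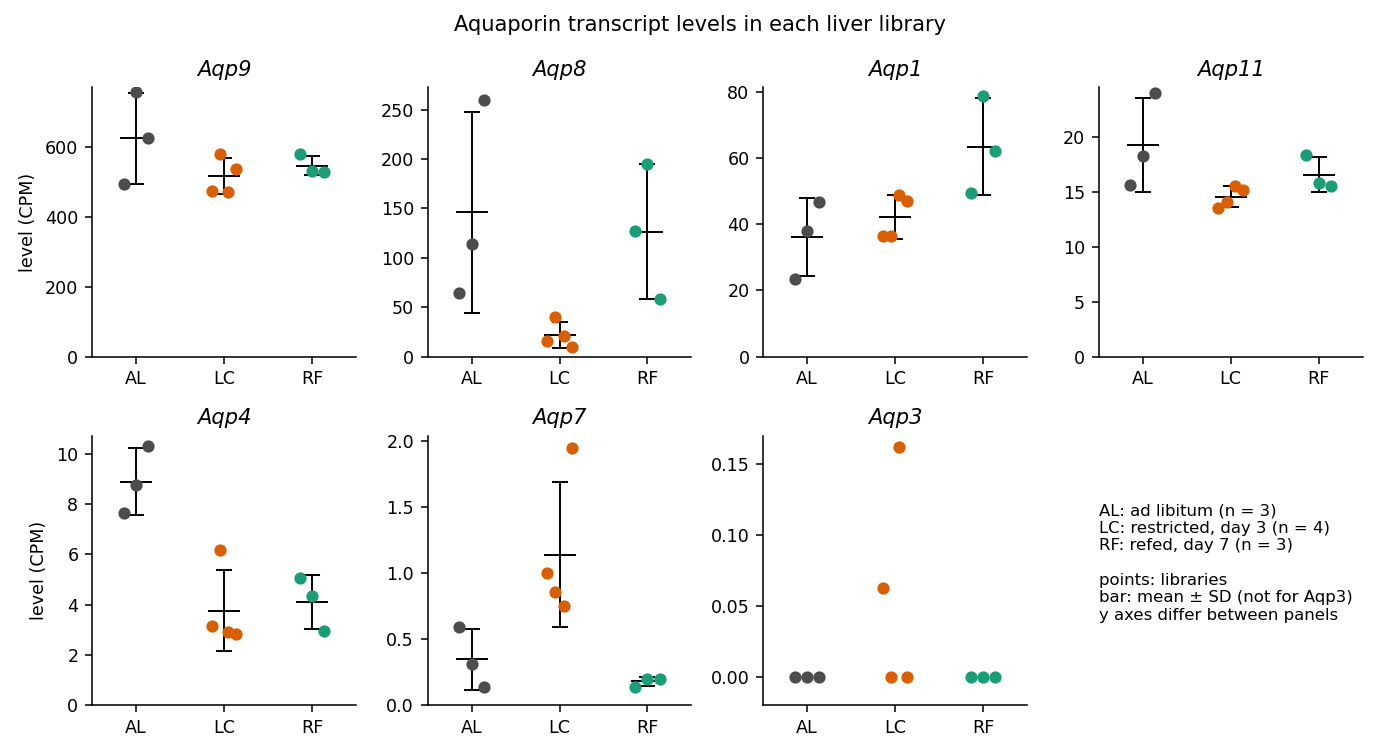
CPM of the aquaporin genes in each library, 1 panel a gene with its own axis, points for libraries and a bar for mean ± SD (none for Aqp3). Aqp8 is 10.3 to 40.1 CPM at LC and 57.9 to 260 CPM at AL and RF, Aqp4 is highest at AL, Aqp7 is highest at LC, and Aqp9 overlaps between all groups.

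Aqp4 (NCBI gene 11829) was a low transcript in liver and was lower at LC than at AL. It was at 7.64, 8.74 and 10.3 CPM in AL replicates 2, 3 and 4, at 3.14, 6.16, 2.91 and 2.82 CPM in LC replicates 1 to 4, and at 5.05, 4.33 and 2.94 CPM in RF replicates 1 to 3. Every AL library lay above every LC and RF library, LC replicate 2 stood above the other LC libraries, and LC and RF overlapped. Aqp4 fell by 1.24 on the log2 scale from AL to LC (SE 0.28, 95% interval −1.84 to −0.65, 2.37-fold, adjusted p = 0.0050 in edgeR's quasi-likelihood test). That call held in all 21 alternatives tried. After refeeding it was still at 4.11 ± 1.07 CPM (n = 3), against 8.88 ± 1.32 at AL (n = 3), a log2 fold change of −1.11 (SE 0.30, 95% interval −1.76 to −0.47) that did not pass (adjusted p = 0.24). RF against AL called only 0.0547% of all genes, and there Aqp4 was called by DESeq2 and by limma voom with sample weights (adjusted p = 0.049 in each; range over 21 alternatives 0.049 to 0.62). RF against LC gave 0.13 (95% interval −0.50 to 0.75, adjusted p = 0.78). Skeletal muscle, another tissue with AQP4, had all 7 of its markers in the table below 1 CPM on average. In the GENCODE M21 annotation Aqp4 overlaps 1 gene on the opposite strand and Aqp9 overlaps 2, an antisense RNA and a pseudogene, none of them analysed here, and without strand the reads of such pairs cannot be told apart.

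Aqp1 (NCBI gene 11826) did not pass in any comparison, though its RF libraries were the highest. It was at 23.5, 38.0 and 46.7 CPM in AL replicates 2, 3 and 4, at 36.5, 36.3, 48.7 and 47.1 CPM in LC replicates 1 to 4, and at 49.3, 78.6 and 62.2 CPM in RF replicates 1 to 3. All RF libraries lay above all AL and LC libraries, and AL and LC overlapped. The log2 fold change was 0.81 for RF against AL (SE 0.24, 95% interval 0.30 to 1.33, unadjusted p = 0.0049, adjusted p = 0.27 in edgeR's test), 0.59 for RF against LC (SE 0.22, 95% interval 0.11 to 1.06, adjusted p = 0.074) and 0.23 for LC against AL (SE 0.22, 95% interval −0.26 to 0.71, adjusted p = 0.47). RF against LC passed in 5 of 21 alternatives, DESeq2 among them (0.049; range 0.023 to 0.31).

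Markers of other cells that hold AQP1 are given beside it. The summed level of 10 markers of sinusoidal endothelium was 250 to 280 CPM among AL libraries, 377 to 402 among LC libraries and 326 to 382 among RF libraries, and none of the 10 was at 0. Of those markers 4 rose at LC against AL, among them the scavenger receptor gene Stab2 (0.95, SE 0.13, adjusted p = 0.00037), where 16% of all genes were higher. From LC to RF, where the Aqp1 libraries were higher, 1 of the 10 rose (Clec4g, 0.58, adjusted p = 0.041) and 2 fell, the scavenger receptor genes Stab1 (−0.59, adjusted p = 0.011) and Stab2 (−0.49, adjusted p = 0.015). Of all genes 11.4% were higher and 10.7% lower in that comparison. None of the 10 passed for RF against AL in edgeR's test, where only 0.0547% of all genes were called. Their median log2 fold change there was 0.39, beside 0.01 over all genes. The 9 markers of bile duct cells summed to 57.6 to 97.8, 77.4 to 98.2 and 79.6 to 126 CPM in the same order of groups, with 4 of them below 1 CPM. The 8 erythroid markers summed to 474 to 716, 274 to 407 and 325 to 1029 CPM. The part of all these markers in the Aqp1 levels was not tested.

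Aqp9 (NCBI gene 64008), the glycerol channel of hepatocytes, had overlapping levels in all 3 groups. It was at 496, 757 and 625 CPM in AL replicates 2, 3 and 4, at 475, 580, 473 and 538 CPM in LC replicates 1 to 4, and at 580, 533 and 529 CPM in RF replicates 1 to 3. The AL libraries were the most spread, with both the highest value and a value in the range of LC. LC against AL gave a log2 fold change of −0.28 (SE 0.15, 95% interval −0.60 to 0.05, adjusted p = 0.18), which with library totals alone was 0.05. That comparison passed in 2 of 21 alternatives, in a range of adjusted p of 0.033 to 0.79. These were limma voom with sample weights (−0.39, adjusted p = 0.041) and edgeR's test without AL replicate 2 (−0.42, adjusted p = 0.033). RF against AL gave −0.19 (95% interval −0.54 to 0.15, adjusted p = 0.68) and RF against LC gave 0.08 (95% interval −0.24 to 0.41, adjusted p = 0.73). Each library held 6684 to 9700 counts of Aqp9.

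Aqp7 (NCBI gene 11832), the adipocyte glycerol channel, was near the detection limit at AL and RF and higher at LC. Its expected counts were 8, 4.15 and 2 in AL replicates 2, 3 and 4, 16, 14, 14 and 31.07 in LC replicates 1 to 4, and 2, 3 and 3 in RF replicates 1 to 3. The values that are not whole are estimates in which reads were divided, and the gene they were shared with is not known here. In CPM these were 0.593, 0.312 and 0.138 at AL, 1.00, 0.862, 0.754 and 1.95 at LC, and 0.142, 0.200 and 0.201 at RF. No LC library overlapped AL or RF, and LC replicate 4 was the highest. A count of 3 corresponds to 0.161 to 0.234 CPM in these libraries, so the RF values lie at or under that floor. The gene passed the filter on low counts through its LC libraries alone, so it had to be higher there to be tested, and its fitted values are given as a description. The fitted log2 fold change was 1.70 for LC against AL (95% interval 0.60 to 2.79), −2.59 for RF against LC (95% interval −3.80 to −1.38) and −0.89 for RF against AL (95% interval −2.41 to 0.62). Summed over libraries, 75 counts at LC stood against 14 at AL, a ratio of 3.28 after scaling (exact 95% interval 1.84 to 6.28, for counting error only). Against the 8 counts at RF the ratio was 6.19 (exact 95% interval 2.99 to 14.9). Both ratios carry the same selection and their intervals leave out the spread between libraries, so they too are only a description. On log2(FPKM + 1) the LC against AL value was 0.48, and with a filter of 1 CPM in 3 libraries the gene was not tested.

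Of the 5 adipocyte markers in the table, Adipoq, Plin1 and Retn were at or near 0, while Cfd and Cidec reached 142 and 44.6 CPM at AL. Adipoq, the adipokine gene specific to fat cells, was at 0 to 0.0780 CPM over all libraries, Plin1 at 0 to 0.554 CPM and Retn at 0 to 0.156 CPM. The 5 adipocyte markers in the table summed to 93.6 to 187 CPM among AL libraries, 6.41 to 28.3 among LC libraries and 10.7 to 17.8 among RF libraries, of which nearly all was Cfd and Cidec. Both fell at LC against AL in edgeR's test (−3.53 and −2.37, adjusted p = 0.0055 and 0.0065), where 15.6% of all genes were lower. Their part in the Aqp7 levels was not tested. Aqp7 and Aqp3 are neighbours on chromosome 4. On the other side of Aqp7 lies Nfx1, a zinc finger gene, which rose by 1.05 at LC against AL (SE 0.15, adjusted p = 0.00052) and fell by 0.93 from LC to RF (SE 0.15, adjusted p = 0.0018).

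Aqp3 (NCBI gene 11828) was not detectable at this depth in most libraries. It had 1 count in LC replicate 1, 3 counts in LC replicate 3 and 0 in the other 8 libraries, where a count of 0 allows up to 0.185 to 0.234 CPM. It was not tested, and no fold is given, as all groups lie at or under the floor of 3 counts per library. Of the 5 other mouse aquaporin genes looked up, Aqp5 and Mip were in the table, with at most 2 counts in any library, and Aqp2, Aqp6 and Aqp12 were not analysed here.

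Aqp11 (NCBI gene 66333), the channel of the endoplasmic reticulum, did not pass in any comparison in edgeR's test, though its LC libraries lay below all AL libraries. It was at 15.6, 18.3 and 24.0 CPM in AL replicates 2, 3 and 4, at 13.5, 14.1, 15.5 and 15.2 CPM in LC replicates 1 to 4, and at 18.4, 15.8 and 15.5 CPM in RF replicates 1 to 3. No LC library reached the lowest AL or RF library, though the highest LC and the lowest RF library were equal to the digits given. LC against AL gave −0.41 (SE 0.15, 95% interval −0.74 to −0.08), which did not pass in edgeR's test (adjusted p = 0.057). It passed in 4 of 21 alternatives, among them DESeq2 (0.044) and without AL replicate 2 (0.016), in a range of 0.016 to 0.72, and was −0.09 with library totals alone. RF against AL gave −0.22 (95% interval −0.57 to 0.13, adjusted p = 0.65) and RF against LC gave 0.19 (95% interval −0.14 to 0.52, adjusted p = 0.40).

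**Figure D3:**
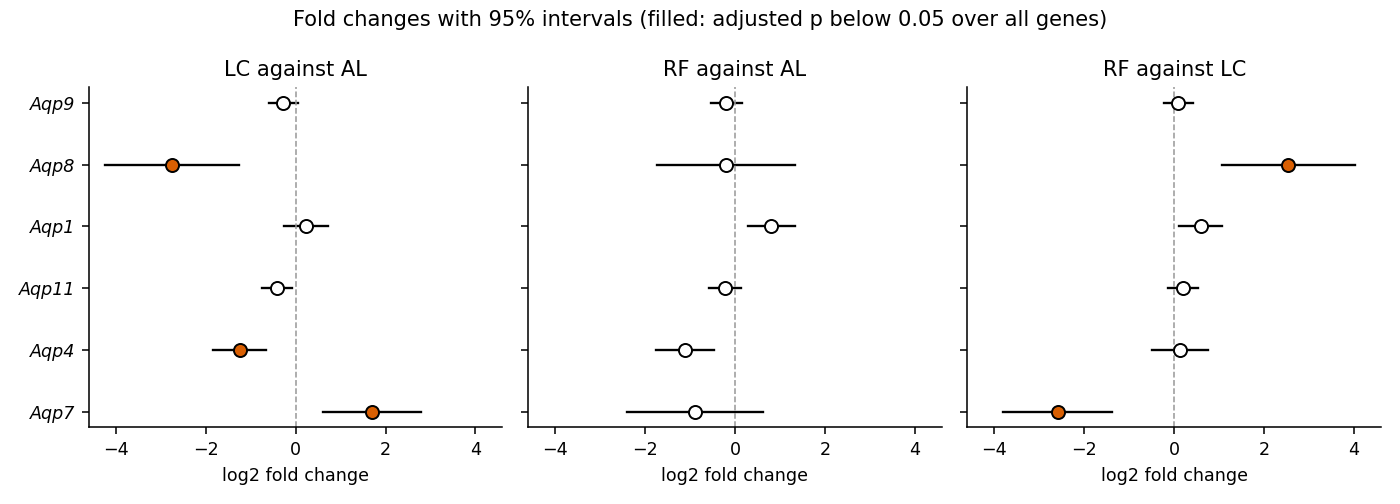
Log2 fold change of the 6 tested aquaporins with 95% intervals in each comparison, filled where the adjusted p over all genes was below 0.05. For LC against AL, Aqp8 (−2.75) and Aqp4 (−1.24) lie left of 0 and Aqp7 (1.70) right of it, for RF against LC Aqp8 (2.54) and Aqp7 (−2.59) are filled, and none is filled for RF against AL, with Aqp7 tested only through its LC libraries.

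Aqp7 is named apart in the counts over the family, since it entered the fit only through the group where it is high. For LC against AL, 2 of the other 5 tested members fell (Aqp8 and Aqp4) and 3 did not pass, and Aqp7 was called higher, against 31.5% of all genes called (16% higher and 15.6% lower, and 43% at an unadjusted p below 0.05). The groups did not overlap for 3 of the 5, and for Aqp7, against 35.8% of all genes. For RF against LC, 1 of the 5 rose (Aqp8) and 4 did not pass, and Aqp7 was called lower, against 22.1% of all genes called (11.4% higher and 10.7% lower, and 36% at an unadjusted p below 0.05), and 3 of the 5 and Aqp7 did not overlap, against 34.1%. For RF against AL none passed in edgeR's test, against 0.0547% of all genes (0.0156% higher and 0.0391% lower), while DESeq2 called 1. At an unadjusted p below 0.05 there were 2 of the 6, Aqp1 and Aqp4, against 10.8% of all genes, and the same 2 did not overlap, against 18.9%. The median log2 fold changes of the 5 were −0.41, 0.19 and −0.21 for LC against AL, RF against LC and RF against AL, beside 0.05, −0.02 and 0.01 over all genes. The comparisons share samples, LC between the first and the second and AL between the first and the third, so their values are not independent.

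**Figure D4:**
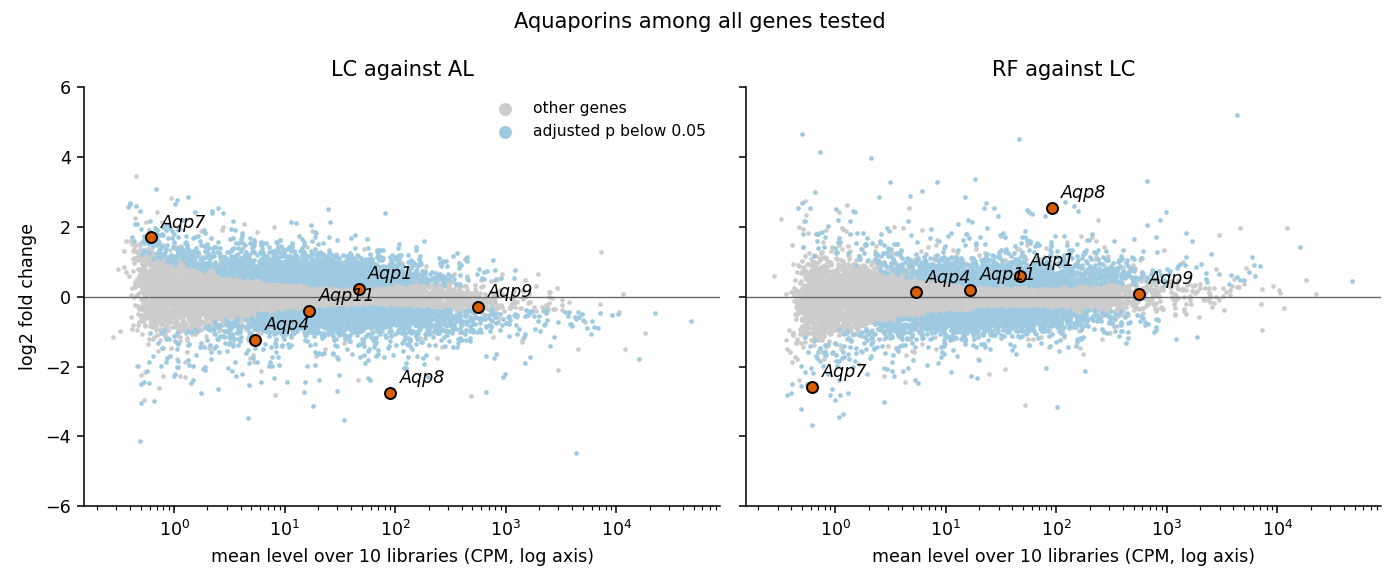
Log2 fold change against mean CPM (log axis) of all 12789 genes tested, with genes of adjusted p below 0.05 in blue and the aquaporins labelled, for LC against AL and RF against LC. Aqp8, with a mean of 90.6 CPM, lies at the lower edge at −2.75 and at the upper edge at 2.54, Aqp9 lies near 0 at 559 CPM, and 1 and 3 genes fall outside the plotted range.

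The genes around the channels were described by lists of pathway members. The pathway and marker lists were read with TMM scaling only, while library totals moved the median of all genes by 0.31 at LC against AL. Of 19 genes of glycerol handling, which store, release or use glycerol, 7 fell at LC against AL, none rose and 12 did not pass, where 15.6% of all genes were lower and 16% higher (median −0.41, beside 0.05 over all genes). Fbp1, the fructose bisphosphatase gene of glucose synthesis, was 642 ± 269 CPM at AL (n = 3) and 269 ± 32.7 at LC (n = 4), and fell by 1.26 (SE 0.25, adjusted p = 0.0032). Abhd5, the cofactor of triglyceride lipase, fell by 0.86 (SE 0.12, adjusted p = 0.00037), and the pyruvate carboxylase gene Pcx fell by 0.64 (SE 0.16, adjusted p = 0.0087). From LC to RF 6 of the 19 rose and 1 fell, where 11.4% of all genes were higher and 10.7% lower. Those of smallest p were Abhd5 (0.80, adjusted p = 0.00099), Gpd2, the mitochondrial glycerol phosphate dehydrogenase gene (1.08, adjusted p = 0.0018), and Fbp1 (1.15, adjusted p = 0.0078). The gene that fell was the glycerol kinase gene Gk (−0.41, SE 0.13, adjusted p = 0.035), named after its values were seen, with means of 171, 204 and 154 CPM in the AL, LC and RF groups.

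Of 12 genes of ammonia and urea metabolism, the route of the ammonia that mitochondrial AQP8 can carry, 8 fell at LC against AL and none rose (median −0.56). Of all genes 15.6% were lower there. From LC to RF 7 rose and none fell (median 0.71), where 11.4% of all genes were higher. Markers of hepatocytes moved the same way, with 7 of 9 lower at LC against AL (median −0.49) and 5 of 9 higher from LC to RF (median 0.37), and their part in the pathway lists was not tested. Ass1, the argininosuccinate synthase gene, was at 2407 ± 327, 726 ± 184 and 2191 ± 266 CPM in the AL, LC and RF groups. It fell by 1.73 under restriction (SE 0.19, adjusted p = 0.00016) and rose by 1.59 on refeeding (SE 0.18, adjusted p = 0.00024). From LC to RF Otc, the ornithine transcarbamylase gene, and the ornithine carrier gene Slc25a15 also rose (0.80 and 0.76, adjusted p = 0.0031 and 0.0033). At LC against AL Otc and the arginase gene Arg1 fell (−1.19 and −1.11, adjusted p = 0.00026 and 0.00057). Of 11 genes that remove hydrogen peroxide 5 fell at LC and none rose (median −0.30), again beside 15.6% of all genes lower and the fall of hepatocyte markers. Those of smallest p were the peroxiredoxin genes Prdx3 (−1.15, SE 0.16, adjusted p = 0.00036) and Prdx1 (−0.87, SE 0.13, adjusted p = 0.00062) and the catalase gene Cat (−0.79, SE 0.15, adjusted p = 0.0025). From LC to RF 4 of these 11 rose and 1 fell (median 0.16), where 11.4% of all genes were higher and 10.7% lower. Prdx3, Prdx1 and Prdx6 had the smallest p (0.92, 0.50 and 0.57, adjusted p = 0.0020, 0.017 and 0.017).

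Of 14 tested genes of bile secretion 2 rose and 1 fell at LC against AL, and 11 did not pass, where 31.5% of all genes were called (median −0.00, beside 0.05 over all genes). Slc4a2, which exchanges chloride for bicarbonate, rose from 22.7 ± 3.92 to 43.7 ± 7.15 CPM, by 0.95 (SE 0.16, adjusted p = 0.00099), and fell by 0.54 from LC to RF (SE 0.15, adjusted p = 0.023). The sterol exporter gene Abcg5 rose by 0.97 (SE 0.22, adjusted p = 0.0059), and the bile acid importer gene Slc10a1 fell by 0.76 (SE 0.26, adjusted p = 0.044). From LC to RF 2 of the 14 rose and 3 fell, where 22.1% of all genes were called, with Abcg5 at −0.98 (adjusted p = 0.0086) and Slc10a1 at 1.07 (adjusted p = 0.014). At LC against AL, where 31.5% of all genes were called, 2 of 12 genes of hormone and nuclear receptor signalling rose and 1 fell. They were the bile acid receptor gene Nr1h4 (0.65, SE 0.13, adjusted p = 0.0028), the glucagon receptor gene Gcgr (0.71, SE 0.16, adjusted p = 0.0045) and Pparg, a regulator of lipid storage (−0.72, SE 0.18, adjusted p = 0.0099). Nr1h4 and Gcgr fell from LC to RF (−0.76 and −0.82, adjusted p = 0.0020 and 0.0035), where 10.7% of all genes were lower. Pparg did not pass there (0.40, adjusted p = 0.13). For RF against AL none of these 5 pathway lists held a gene that passed, where only 0.0547% of all genes were called.

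The genes nearest to each aquaporin in pattern over the 10 libraries were taken by Pearson's r of log2 CPM among 9319 named genes whose mean reached 5 CPM, as a description. The libraries share their groups, so part of each r is the difference between groups, and r of the deviations from group means is given after it. For Aqp8 they were Rabif (r = 0.976, and 0.915 within groups), Tmlhe (0.972 and 0.898) and Olfml1 (0.966 and 0.918). For Aqp9 they were Chmp2b (0.990 and 0.986), Immt (0.927 and 0.932) and Oxr1 (0.926 and 0.912). Aqp1 was nearest to Dnase1l3 (0.951 and 0.889), Tnfsf10 (0.909 and 0.787) and Mfsd12 (0.906 and 0.826), and Aqp4 to Osbpl1a (0.948 and 0.884), Supt3 (0.913 and 0.868) and Sulf2 (0.910 and 0.726). Aqp11 was nearest to Arpc1a (0.948 and 0.960), Mrpl15 (0.934 and 0.885) and Nicn1 (0.930 and 0.871). Aqp7, whose counts are low, was nearest to Rps28 (0.981 and 0.910), Rpl37a (0.968 and 0.858) and Rexo5 (0.968 and 0.863). The log2 fold changes of Rabif, Tmlhe and Olfml1 at LC against AL were −0.67, −1.13 and −0.93, beside −2.75 for Aqp8.

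**Figure D5:**
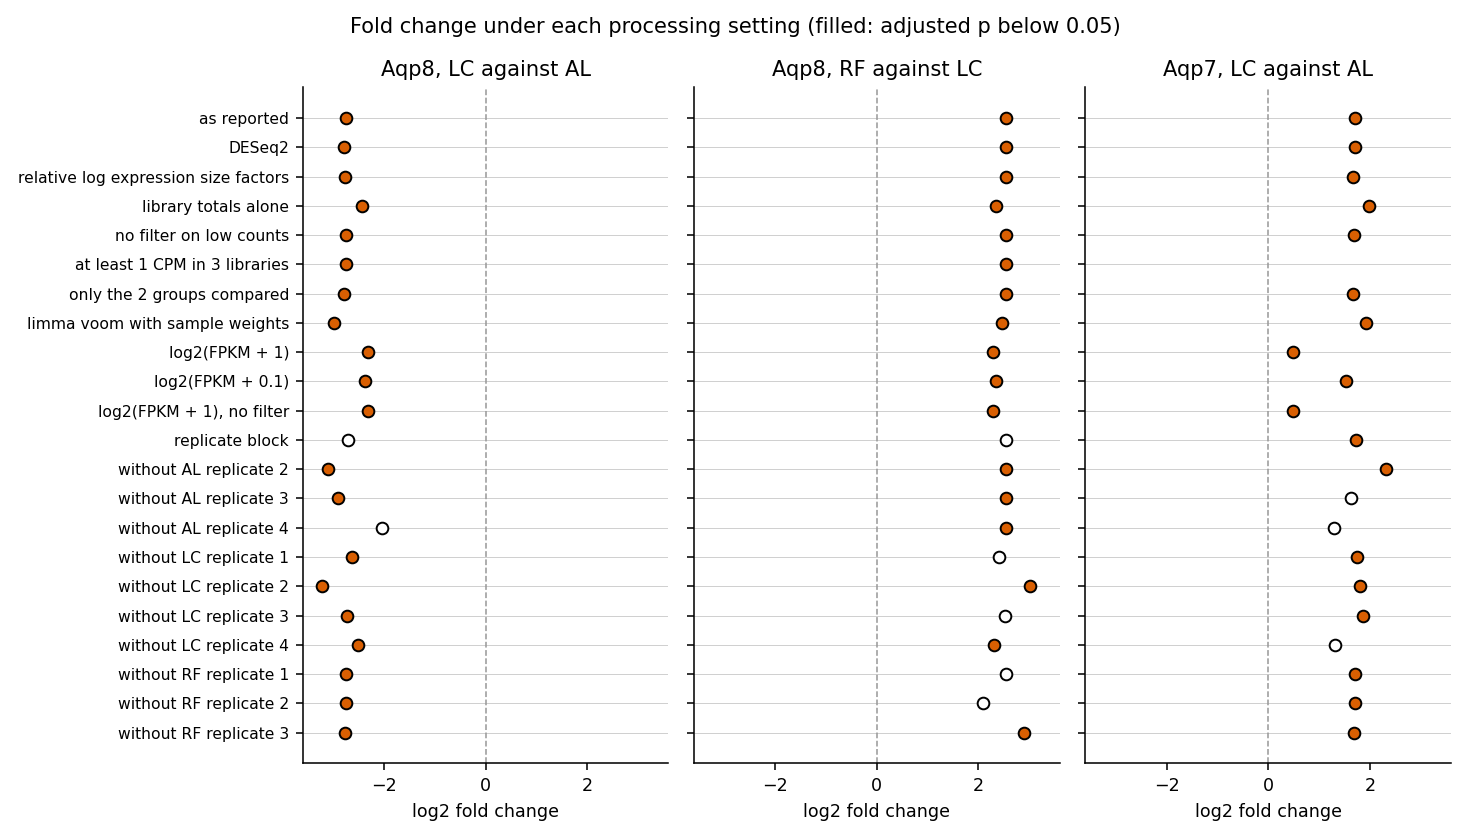
Log2 fold change of Aqp8 (LC against AL, and RF against LC) and Aqp7 (LC against AL) as reported and under each alternative setting, filled where the adjusted p was below 0.05. Aqp8 stays between −3.22 and −2.04 and between 2.09 and 3.01, Aqp7 between 0.48 and 2.32, and the open points mark the settings in which the call was lost.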

How the data were processed

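Liver RNA of 10 samples was enriched for poly(A) and sequenced on the DNBSEQ platform without strand, at RNA integrity numbers of 6.6 to 8.5, per the labels' protocols. The authors deposited expected counts and FPKM values per gene (2 units, both per the file headers). HISAT, Bowtie2 and, as the build, GRCm39 are listed, with no role or version, per the submitters' processing notes. The counting program and annotation were not given in the sources used here. Of the deposited count values 10.9% were not whole (tolerance 1e-09), and all were rounded. Genes were filtered with filterByExpr, scaled by TMM and fitted over all 10 libraries with a mean per group in edgeR 4.0.16 (R 4.3.3; glmQLFit, robust), and p-values were adjusted over the 12789 genes tested. Standard errors were derived from each log2 fold change and its F statistic, and intervals are at 95%. Errors of group levels are SDs between samples, and floors of 3 counts cover counting error only. Low-count members are the least precise, Aqp7 and Aqp3 above all.

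The 7 members, the pathway and marker lists and the tests were chosen with earlier results of these data known. Every member is described, with at most 3 members of a pathway list in each comparison, those of smallest p, with Gk added after its values were seen, and the 3 genes nearest in pattern to each tested member. The fit was checked on simulated counts before use. Alternatives were DESeq2 1.42.0, limma 3.58.1 (voom with weights, and log2 of FPKM plus 1 or 0.1), other scalings and filters, the compared groups alone, a replicate block and leaving out each library. Libraries of a group differed by more than counting noise (chi-square per degree of freedom 28.7 to 64.7), so none was treated as a repeat deposit of another, which does not show that they are separate animals. Overlaps and neighbours of genes come from GENCODE M21 and promoters from RefSeq, both on GRCm38, used for order and sequence only.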

Additional observations from a re-analysis of the deposited data

Results flagged for a closer look

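Aqp4 in LC replicate 2 stood apart from its group, at 6.16 CPM against 2.82 to 3.14 CPM in the other 3 LC libraries, with a gap to the nearest of 0.905 of the group's range (critical value 0.829). Without that library the log2 fold change of Aqp4 for LC against AL was −1.58 (adjusted p = 0.00060 in edgeR's test) in place of −1.24, and for RF against LC it was 0.47 (adjusted p = 0.17) in place of 0.13. Of the 6 aquaporins looked at in the LC group 1 had a library standing apart in this way, and chance gives about 1 in 20 groups.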

How the results depend on the processing

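Over the alternatives, 330 of 373 fold changes of single aquaporins kept their direction and their side of the threshold, 13 passed that had not, 10 no longer passed and 20 changed sign, none of the last called in either case. Aqp4 at LC against AL passed in all 21 alternatives, at −0.52 with log2(FPKM + 1), which shrinks low genes. The 373 include fold changes of Aqp7. Of these, 17 were kept and 3 no longer passed at LC against AL, 18 were kept at RF against AL and 20 at RF against LC. For Aqp7, tested only through its LC libraries, passing says nothing about stability. Counting it, the number of aquaporins called at LC against AL was 3, and 5 with limma voom with sample weights, which added Aqp9 and Aqp11, at RF against AL 0, and 1 (Aqp4) with DESeq2 or voom, and at RF against LC 2, and 1 with a filter of 1 CPM in 3 libraries, which leaves out Aqp7. Leaving out each library in turn gave 1 to 5, 0 and 1 to 3 called in the same order, with LC against AL at 1 without AL replicate 4 and 5 without AL replicate 2, and RF against LC at 1 without LC replicate 1, LC replicate 3 or RF replicate 2. Of all genes, 2110 to 4353, 1 to 13 and 1435 to 3141 were called, where all libraries gave 4034, 7 and 2821. The count at LC against AL was 2110 without AL replicate 3 and 2557 without AL replicate 4, and at RF against LC 1435 and 1642 without RF replicates 2 and 3. At RF against AL it was 1 without any of RF replicate 2, RF replicate 1, LC replicate 4, LC replicate 3 and AL replicate 3, 4 without AL replicate 4, 11 without AL replicate 2 and 13 without LC replicate 2. Of all genes RF against AL called 99 with DESeq2, 45 with voom, 13 when no genes were filtered out, and 2 with log2(FPKM + 1), log2(FPKM + 0.1) or log2(FPKM + 1) with no filter, and 1381 had an unadjusted p below 0.05. With library totals alone or FPKM, Aqp9 at LC against AL turned to 0.05, and at RF against LC Aqp9 turned to −0.12, Aqp4 to −0.07 or −0.02 and Aqp11 to −0.02 or −0.01, and library totals also moved the median of all genes. With a library left out in turn, Aqp1 at LC against AL ranged from −0.01 (without AL replicate 2) to 0.45, Aqp8 at RF against AL from −0.66 to 0.51 (without AL replicate 4; 0.13 without RF replicate 3), and Aqp4 at RF against LC from −0.05 (without RF replicate 1) to 0.47. The cause was not tested.

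The replicate numbers were not used to pair the samples in the reported fit. Same-numbered libraries deviated together with r of −0.0462 to 0.0654 over 3 pairs of LC and AL, and −0.0397 and 0.0135 for RF and AL. Over 3 pairs of RF and LC r was 0.0487 to 0.252. There RF replicates 1 and 2 were nearest to the LC replicates of the same number (0.252 and 0.185), and RF replicate 3 to LC replicate 4 (r = 0.117). These values do not settle whether LC and RF samples are paired. With the replicate block 2 aquaporins were called at LC against AL, 0 at RF against AL and 2 at RF against LC. There Aqp8 gave −2.71 (adjusted p = 0.077) and 2.54 (adjusted p = 0.080), and Aqp1 passed at RF against LC (0.71, adjusted p = 0.024).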
